A study of Mus musculus with 11 samples.

Results

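The 7 genes Wdfy1, Rell1, Cd59a, Camk2b, Lrmda, Gm10600 and Spink5 were taken, by symbol, from the 31053 genes counted in droplet-based 3' single-cell RNA-seq of whole mouse lung. They had been picked because their levels set p21mTert libraries apart from p21Het libraries in these same data, so their differences between these groups are given as a description, without a test. The series holds 11 libraries of 4 genotypes. The WT group (p21 +/+) has 1 library, p21Het (p21 +/-) has 3, p21mTert (p21 +/mTert) has 5, and p21mTertCD (p21 +/mTertCD) has 2. p21 is the product of Cdkn1a, a cell cycle inhibitor, and mTert is the mouse telomerase reverse transcriptase gene, Tert. By this notation all groups but WT have a single unmodified p21 allele, which the p21Het controls share, and in the last 2 groups the other allele is the one named. The letters CD are not spelled out in the labels, nor do the labels give the strain or say whether each library is a separate mouse, so the spread between libraries may be partly technical. Mice were 18 months old per the age labels, except p21Het_1 at 19 and p21mTert_1 at 20 months. The titles give 18 months for these too, a conflict that was not resolved.

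Of 81983 barcodes, 69267 were kept (1000 to 30000 UMIs, or unique molecular identifiers, and at most 14% mitochondrial UMIs), and libraries held 42038434 to 85988955 UMIs before this filter. Cells were put in lineages by markers: at least 3 of the 8 genes of a list, and at least 2 more than of any other list. This named 84.2% of kept barcodes, and 106 of the 112 markers of the 14 lineages used were highest in their own lineage. The 14 lineages are alveolar type 2 cells (AT2), ciliated cells, general and aerocyte capillary cells (gCap, aCap), fibroblasts, alveolar and interstitial macrophages, classical and non-classical monocytes, neutrophils, B, T and NK cells, and erythroid cells. Erythroid cells were measured in 9 libraries and aCap cells in 10, without p21Het_3, since at least 20 cells were asked of a library. WT_1, p21Het_1 and p21mTert_1, whose titles carry no Rep number, had a median mitochondrial share of 6.30% to 6.58%, against 2.82% to 4.28% in the other 8 libraries. Library pairs shared 4 to 20 cell barcodes. The 2 p21mTertCD libraries differ: p21mTertCD_1 held 89 B cells, against 687 to 2191 in each other library. Genes called between p21mTert and p21mTertCD numbered 1 with both, 1 without p21mTertCD_1 and 138 without p21mTertCD_2, where the lone library is assumed to vary like the other groups. The values of these 2 libraries are therefore given apart, except where UMIs were summed over a group or a group mean is given. Levels are CPM, UMIs per 1000000 UMIs of the library or lineage. Tert was at 2.00 to 3.28 CPM in p21mTert, 1.90 and 2.59 in p21mTertCD, 1.13 in WT and 0.544 to 0.842 in p21Het. Cdkn1a was at 124 to 160.1 CPM in p21mTert, 136 to 187 in p21Het, 118 and 174 in p21mTertCD, and 155 in WT.

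The 7 genes belong to no common pathway. Wdfy1 encodes a protein with WD repeats and a FYVE domain that binds a phospholipid of early endosomes and helps to recruit the adaptor TRIF to Toll-like receptors 3 and 4. Camk2b encodes the beta subunit of calcium/calmodulin-dependent protein kinase II, a holoenzyme of mixed subunits that turns calcium signals into phosphorylation. Cd59a encodes a membrane-anchored inhibitor of complement that blocks assembly of the membrane attack complex. Rell1 encodes a relative of the TNF receptor family member RELT, Lrmda a leucine-rich repeat protein linked to melanocyte differentiation, and Spink5 an inhibitor of kallikrein proteases with many Kazal domains, known from skin. Gm10600 is a predicted gene with no assigned function.

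The genes lie on 7 different chromosomes (GENCODE M21, GRCm38), none of them that of Cdkn1a (17) or Tert (13). Wdfy1 spans 79702262 to 79776143 on chromosome 1, minus strand. Rell1 spans 63908897 to 63968897 on chromosome 5, minus strand. Cd59a spans 104095801 to 104115354 on chromosome 2, plus strand. Camk2b spans 5969644 to 6066362 on chromosome 11, minus strand. Lrmda spans 22019712 to 23056085 on chromosome 14, plus strand. Gm10600 spans 42240639 to 42242685 on chromosome 4, plus strand. All 7 are annotated as protein coding there, while RefSeq lists Gm10600 as a pseudogene.

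The 250 bases before the start site of Camk2b, Cd59a, Rell1 and Lrmda, the 4 members in the RefSeq promoter table (GRCm38.p6), are shown, since the first 2 were higher and the last 2 lower in p21mTert libraries; Wdfy1, Gm10600 and Spink5 had no entry. Both strands were searched for the GC box core GGGCGG, for the CCAAT box, for the TATA box letters TATAAA and for the E-box CACGTG, and matches are in capitals. The windows, read on the gene's strand, are chr2:104095551-104095800 (plus) for Cd59a, chr11:6065749-6065998 (minus) for Camk2b, chr5:63968898-63969147 (minus) for Rell1 and chr14:22019462-22019711 (plus) for Lrmda.
Cd59a: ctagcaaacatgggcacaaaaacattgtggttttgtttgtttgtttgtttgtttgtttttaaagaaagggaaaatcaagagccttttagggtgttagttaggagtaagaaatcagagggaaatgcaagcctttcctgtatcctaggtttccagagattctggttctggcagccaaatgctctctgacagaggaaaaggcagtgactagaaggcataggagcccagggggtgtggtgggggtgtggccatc
Camk2b: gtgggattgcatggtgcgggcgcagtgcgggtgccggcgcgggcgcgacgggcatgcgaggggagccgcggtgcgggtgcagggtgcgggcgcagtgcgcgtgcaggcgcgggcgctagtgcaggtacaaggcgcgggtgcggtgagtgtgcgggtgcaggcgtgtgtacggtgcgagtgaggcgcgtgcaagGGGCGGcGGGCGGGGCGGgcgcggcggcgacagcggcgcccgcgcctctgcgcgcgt
Rell1: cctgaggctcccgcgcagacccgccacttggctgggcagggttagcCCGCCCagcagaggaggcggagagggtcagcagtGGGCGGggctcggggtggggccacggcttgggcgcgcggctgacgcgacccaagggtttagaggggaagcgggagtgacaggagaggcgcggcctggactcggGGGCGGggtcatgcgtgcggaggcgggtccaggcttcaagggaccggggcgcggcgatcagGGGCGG
Lrmda: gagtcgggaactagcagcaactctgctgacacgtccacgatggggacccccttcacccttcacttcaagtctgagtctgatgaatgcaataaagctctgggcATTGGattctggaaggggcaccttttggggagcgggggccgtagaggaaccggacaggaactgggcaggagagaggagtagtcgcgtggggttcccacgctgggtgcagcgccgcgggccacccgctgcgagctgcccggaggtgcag
The Camk2b window held 3 matches to GGGCGG, starting 57, 50 and 45 bases before the start and the last 2 sharing 1 base. The Rell1 window held 4, at 204, 170, 67 and 6 bases. The Camk2b window lies within the longer GENCODE gene. The Lrmda window held 1 match to CCAAT, on the opposite strand, at 148 bases, and the Cd59a window held none of the 4 motifs. Of 32851 RefSeq windows of this length, 32.7% held GGGCGG, 33.8% CCAAT, 12.4% TATAAA and 6.02% CACGTG. The windows also differed in base composition: 78.4% G or C with 44 CpG in Camk2b, 74.4% with 26 in Rell1, 62.4% with 15 in Lrmda and 44.8% with 0 in Cd59a, against medians of 52.4% and 6 over all windows. A match is a string in this window and not a site of any factor.

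Summed over all kept barcodes, 6 of the 7 genes had p21mTert libraries that did not overlap the p21Het libraries. Wdfy1, Cd59a and Camk2b were higher in every p21mTert library, and Rell1, Lrmda and Gm10600 lower. Among the 17941 genes with at least 50 UMIs, 2.33% were higher and 0.981% lower in the same way, but the members were picked on this contrast and nothing is read from their count.

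**Figure D1:**
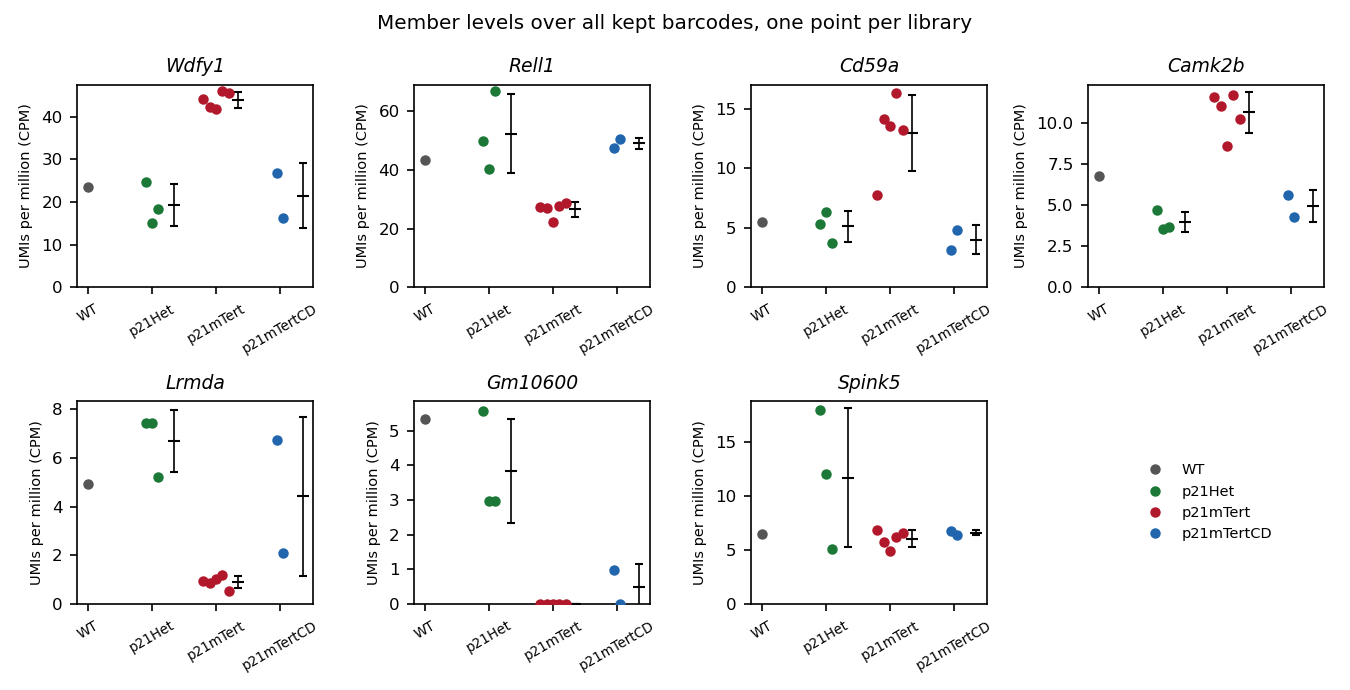
Level of each member in UMIs per 1000000 (CPM, vertical axis) in every library, by genotype; points are libraries, the dash is the mean and the bars 1 SD, and WT has 1 library. The 5 p21mTert libraries sit at 41.9 to 46.0 CPM for Wdfy1, above all other libraries, and at 0 for Gm10600.

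Wdfy1 was at 44.1, 42.2, 41.9, 46.0 and 45.7 CPM in the 5 p21mTert libraries, at 24.7, 14.97 and 18.4 in p21Het, 26.9 and 16.1 in p21mTertCD and 23.6 in WT (95% exact interval 22.1 to 25.3, counting error only). The groups did not overlap: p21mTert libraries were the 5 highest of the 11, and varied by 1.89 CPM (SD, n = 5) around 43.97. WT lay within the p21Het range. The difference of mean log2(CPM + 1) was 1.17 against p21Het and 1.04 against p21mTertCD, and 0.13 for p21mTertCD minus p21Het. This 0.13 averages 2 libraries that differ: p21mTertCD_1 lay above all p21Het libraries and p21mTertCD_2 within their range. The contrasts share libraries, so they are not independent of each other.

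Camk2b was at 11.6, 11.02, 8.61, 11.7 and 10.2 CPM in p21mTert, 4.68, 3.54 and 3.65 in p21Het, 5.62 and 4.27 in p21mTertCD, and 6.76 in WT (interval 5.94 to 7.66). All p21mTert libraries were above all others, and WT lay above the p21Het and p21mTertCD libraries. The log2 differences were 1.23 against p21Het and 0.97 against p21mTertCD.

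Cd59a was at 7.75, 14.2, 13.5, 16.4 and 13.2 CPM in p21mTert, 5.30, 6.35 and 3.69 in p21Het, 3.12 and 4.85 in p21mTertCD, and 5.49 in WT (interval 4.75 to 6.31). The p21mTert libraries were again the 5 highest, with p21mTert_1, a library without a Rep number, lowest among them. Its log2 difference was 1.19 against p21Het and 1.48 against p21mTertCD.

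Rell1 went the other way: 27.3, 27.1, 22.2, 27.7 and 28.8 CPM in p21mTert, 49.8, 40.3 and 66.9 in p21Het, 47.6 and 50.5 in p21mTertCD, and 43.3 in WT (interval 41.2 to 45.5). Every p21mTert library was below every other library. The log2 difference was -0.92 against p21Het and -0.86 against p21mTertCD.

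Lrmda was at 0.927, 0.873, 1.01, 1.18 and 0.507 CPM in p21mTert, 7.43, 7.43 and 5.20 in p21Het, 6.72 and 2.11 in p21mTertCD, and 4.91 in WT (interval 4.22 to 5.69). All 5 p21mTert libraries were the lowest of the 11. The 2 p21mTertCD libraries differed from each other: p21mTertCD_1 lay in the p21Het range and p21mTertCD_2 between the p21Het and p21mTert libraries. The log2 difference was -2.01 against p21Het and -1.38 against p21mTertCD (-2.03 without p21mTertCD_2 and -0.72 without p21mTertCD_1).

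Gm10600 had no UMI in any of the 5 p21mTert libraries, among 233876926 UMIs in all, and none in p21mTertCD_2. It was at 5.57, 2.97 and 2.96 CPM in p21Het, 5.35 in WT (interval 4.63 to 6.16) and 0.963 in p21mTertCD_1. A count of 0 allows at most 0.0801 CPM in the p21mTert library with the fewest UMIs (3 counts per library). Such limits average 0.0659 CPM over the 5 p21mTert libraries, at least 58.2-fold below the p21Het mean of 3.83. The gene lies among near-identical copies on chromosome 4: 6 annotated genes match its transcript at 95% identity or more over at least 400 bases, for example Gm2163 at 98.0% over 1606 bases and Gm10593 at 99.3% over 1072. Reads that fit several copies cannot be placed, so its count is uncertain. The copies held 20 UMIs in all libraries together, and the sum of Gm10600 and copies was at 0.0202 to 0.0698 CPM in p21mTert, 2.98 to 5.62 in p21Het, 0.980 and 0.0401 in p21mTertCD and 5.41 in WT.

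Spink5, on chromosome 18 from 43963235 to 44022501, plus strand, overlapped between the groups over all kept barcodes. It was at 6.82, 5.71, 4.84, 6.17 and 6.56 CPM in p21mTert, 17.9, 11.96 and 5.06 in p21Het, 6.74 and 6.40 in p21mTertCD, and 6.48 in WT (interval 5.68 to 7.37). AT2 cells held 91.8% of its UMIs, and their share of kept barcodes was 7.37%, 9.52% and 2.73% in p21Het, 5.43% to 8.88% in p21mTert, 5.44% and 4.18% in p21mTertCD and 5.49% in WT. The part of these shares in the whole-library level was not tested. Within AT2 cells the libraries separated.

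AT2 cells were the lineage in which all 7 genes reached 50 UMIs, and all 7 had p21mTert libraries that did not overlap p21Het, 3 higher and 4 lower; 1.31% of genes were higher and 1.95% lower there, and nothing is read from the count, since this contrast chose the members. Spink5 was at 59.7, 38.3, 30.9, 37.4 and 50.2 CPM there in p21mTert, 97.6, 72.7 and 84.2 in p21Het, 81.1 and 83.4 in p21mTertCD, and 41.7 in WT. Unlike for the other members, the WT library lay within the p21mTert range. Cd59a was at 23.5, 32.5, 30.7, 28.8 and 32.2 CPM in p21mTert, 8.49, 6.39 and 10.97 in p21Het, 3.27 and 2.22 in p21mTertCD, and 9.34 in WT. The 2 p21mTertCD libraries, on 14 and 8 UMIs, were below all other libraries. Rell1 was at 12.2, 10.8, 10.5, 9.10 and 7.11 CPM in p21mTert, 27.3, 29.5 and 29.7 in p21Het, 30.4 and 30.8 in p21mTertCD and 24.5 in WT. Here the spread within groups was small beside the gap between them. Wdfy1 was at 72.7 to 85.9 CPM in p21mTert, 24.0 to 37.9 in p21Het, 25.3 and 54.0 in p21mTertCD and 38.0 in WT. Camk2b was at 16.2 to 20.0 CPM in p21mTert, 4.24 to 7.05 in p21Het, 5.83 and 7.48 in p21mTertCD and 11.4 in WT. Lrmda was at 0.888 to 2.95 CPM in p21mTert, 11.3 to 14.0 in p21Het, 3.06 and 9.82 in p21mTertCD and 7.88 in WT, so that p21mTert libraries were below all others.

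Counted over the 14 lineages, 49 pairs of a member and a lineage had at least 50 UMIs in the replicated libraries. Of these, p21mTert was above p21Het without overlap in 20 and below in 15, where 1.69% and 3.37% of all gene and lineage pairs did so. The members were picked on this contrast and the pairs repeat the same 7 genes, so nothing is read from these 2 counts. Against p21mTertCD, 19 pairs were higher and 13 lower, beside 7.13% and 4.46% of all pairs. Between p21mTertCD and p21Het, 2 pairs were higher and 9 lower, beside 6.25% and 12.8%. The last 2 contrasts set 2 p21mTertCD libraries against 5 and 3, and share libraries with the first.

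**Figure D2:**
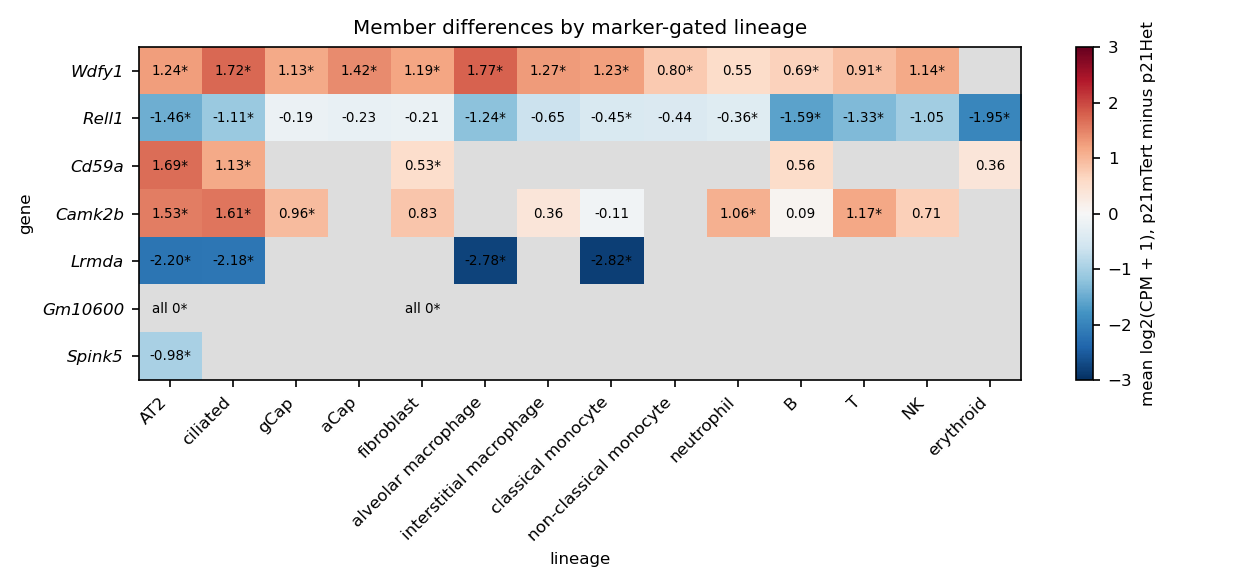
Difference of mean log2(CPM + 1), p21mTert minus p21Het, for each member (rows) and lineage (columns); an asterisk marks libraries that do not overlap, and grey without text marks fewer than 50 UMIs. "All 0" marks Gm10600, which had no UMI in p21mTert. Wdfy1 is above 0 in all 13 lineages shown, and Rell1 is close to 0 in gCap, aCap and fibroblasts.

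Wdfy1 was the widest of the 7. Its p21mTert libraries lay above all p21Het libraries in 12 of 13 lineages, the exception being neutrophils (26.9 to 36.9 CPM in p21mTert, 13.6 to 32.7 in p21Het). Log2 differences ran from 0.55 in neutrophils to 1.77 in alveolar macrophages. In ciliated cells it was at 118, 109, 128, 123 and 149 CPM in p21mTert, 45.1, 29.5 and 38.1 in p21Het, 74.9 and 34.7 in p21mTertCD, and 37.3 in WT. Against p21mTertCD it separated in 10 of 13 lineages, and p21mTertCD and p21Het overlapped in 13 of 13. The 2 p21mTertCD libraries differed there. p21mTertCD_1 lay above all p21Het libraries in each of these lineages but gCap, neutrophils and NK cells, as in AT2 cells (54.0 CPM against at most 37.9). p21mTertCD_2 did so in no lineage. In some lineages other libraries lay within or above the p21mTert range: in gCap cells WT was at 47.4 CPM (36.8 to 56.6 in p21mTert), in aCap cells WT was at 37.0 and p21mTertCD_1 at 69.3 (23.8 to 44.0 in p21mTert), and in B cells p21mTertCD_1 was at 50.7 (32.4 to 39.7 in p21mTert). T cells had p21mTertCD_1 at 23.1 CPM (21.5 to 28.4 in p21mTert), and neutrophils had WT at 27.7, also within the p21mTert range. Of the 8504 genes with 50 UMIs in at least 10 lineages, 0.0588% were higher without overlap in 5 or more (Wdfy1, Camk2b, Sik1, Gm47283 and AC149090.1), and 0.0118%, Rell1 alone, were lower in 5 or more. The members were picked on this contrast, so nothing is read from their place among all genes. The limit of 5 and the 3 genes that are no members were chosen after the values were seen.

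**Figure D3:**
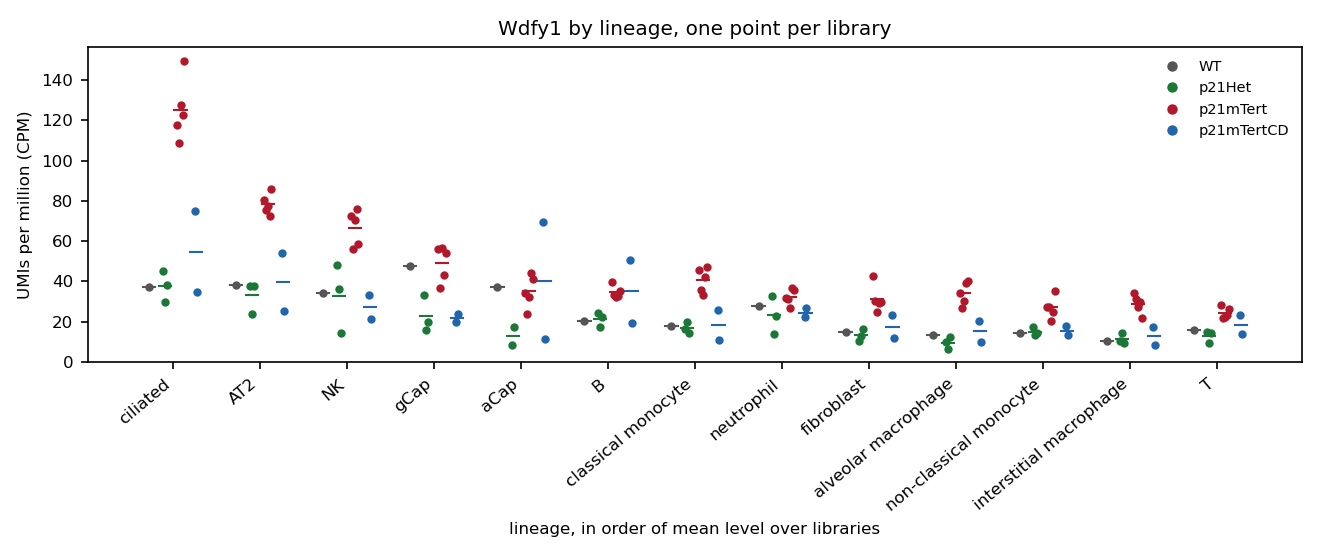
Wdfy1 level in UMIs per 1000000 (CPM) by lineage, in order of the mean over libraries; points are libraries and short lines group means. p21mTert libraries (red) lie above p21Het libraries (green) in 12 of the 13 lineages, and overlap them in neutrophils.

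Rell1 was lower in p21mTert than in p21Het without overlap in 8 of 14 lineages. In B cells it was at 12.2, 15.3, 11.2, 18.5 and 14.5 CPM in p21mTert, 47.3, 33.2 and 56.6 in p21Het, 32.3 and 32.8 in p21mTertCD, and 39.6 in WT. In T cells it was at 17.0, 19.4, 11.6, 13.6 and 17.3 CPM in p21mTert, 38.7, 33.5 and 51.1 in p21Het, 31.0 and 42.1 in p21mTertCD, and 29.8 in WT. In B and T cells the p21mTert libraries were thus below all others. NK cells overlapped: p21mTert_2, at 24.9 CPM, lay above p21Het_2 (24.1) and WT (19.5). In gCap cells, where the gene was at 52.7 CPM on average, the p21mTert libraries (43.4 to 54.6 CPM) overlapped p21Het (47.5 to 66.0), and so they did in aCap cells (81.3 to 100.7 against 84.0 and 133.6). Log2 differences were -0.19 in gCap, -0.23 in aCap and -0.21 in fibroblasts, against -1.59 in B cells. Whether lineages differ in this difference was not tested.

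**Figure D4:**
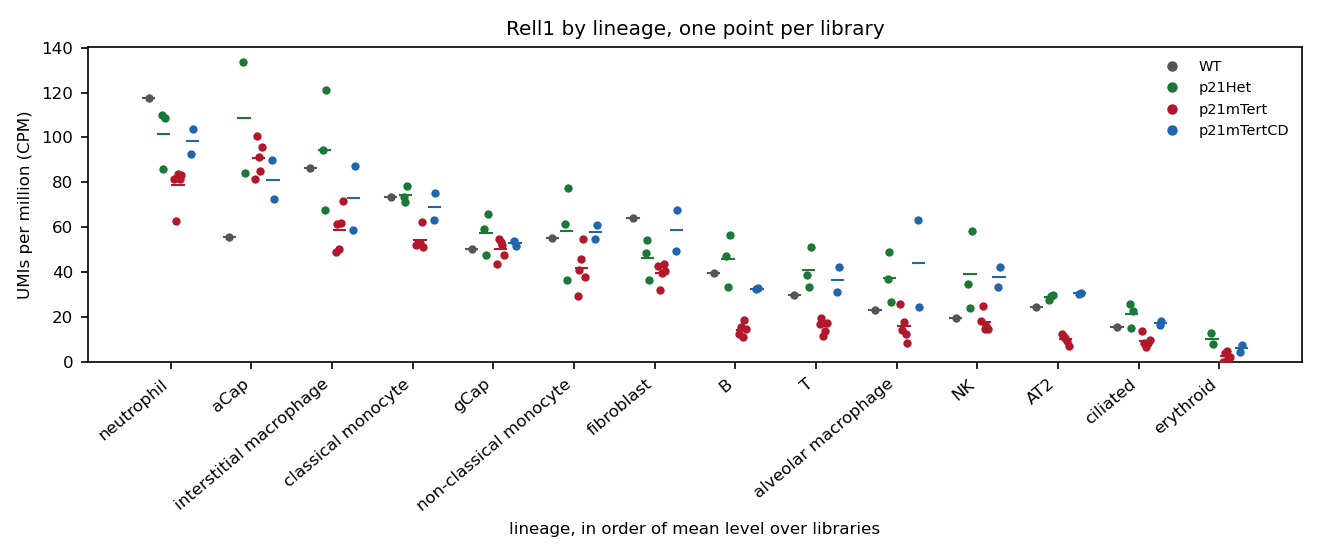
Rell1 level in UMIs per 1000000 (CPM) by lineage, in order of the mean over libraries; points are libraries and short lines group means. p21mTert libraries (red) lie below p21Het (green) in B, T and AT2 cells, and among them in gCap and aCap cells.

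Cd59a reached 50 UMIs in 5 lineages and was higher without overlap in 3. In ciliated cells it was at 68.7, 60.0, 70.8, 69.6 and 63.1 CPM in p21mTert, 32.3, 31.2 and 26.3 in p21Het, 20.9 and 33.8 in p21mTertCD, and 23.1 in WT. In fibroblasts it was at 59.2 to 79.9 CPM in p21mTert, 43.9 to 54.9 in p21Het, 44.98 and 50.5 in p21mTertCD, and 49.6 in WT, a smaller step of 0.53 on the log2 scale. B cells and erythroid cells overlapped. In lineages with too few cells for library values, UMIs were summed over each group: alveolar type 1 cells (AT1) were at 101.8 CPM in p21mTert (exact interval 84.5 to 121.6, 188 cells) and 23.7 in p21Het (10.85 to 45.03, 54 cells), and mural cells at 83.3 (67.4 to 101.8) and 75.0 (55.3 to 99.4). These intervals cover counting error only.

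Camk2b reached 50 UMIs in 10 lineages and was higher without overlap in 5 of them (AT2, ciliated, gCap, neutrophils and T). NK cells, its highest lineage, were at 116.4, 63.6, 47.6, 90.5 and 71.5 CPM in p21mTert, 41.4, 44.3 and 49.8 in p21Het, 39.2 and 24.5 in p21mTertCD, and 43.9 in WT. There p21mTert_3 lay among the p21Het libraries. T cells were at 20.5, 16.1, 11.8, 20.3 and 20.6 CPM in p21mTert, 8.70, 4.54 and 9.35 in p21Het, 11.1 and 8.25 in p21mTertCD, and 11.4 in WT. In neutrophils WT (4.94 CPM) and p21mTertCD_2 (3.02) lay within the p21mTert range (2.84 to 5.87). B cells did not separate (1.81 to 4.58 CPM against 1.98 to 2.72).

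Lrmda was lower without overlap in all 4 lineages with 50 UMIs, beside 3.37% of all pairs of gene and lineage. In alveolar macrophages and classical monocytes most of these UMIs came from groups other than p21mTert, so the floor itself favours lineages where p21mTert is low. The members were also picked on this contrast, and nothing is read from the count. In ciliated cells it was at 5.09, 5.27, 5.03, 5.46 and 6.58 CPM in p21mTert, 38.4, 22.2 and 26.3 in p21Het, 28.8 and 8.68 in p21mTertCD, and 26.7 in WT. Alveolar macrophages were at 0.318 to 1.89 CPM in p21mTert and 11.8 to 16.9 in p21Het. Classical monocytes were at 0 to 6.63 CPM in p21mTert, 11.03 to 14.05 in p21Het, 4.42 and 9.43 in p21mTertCD and 11.9 in WT. There p21mTert_3, on 3 UMIs, lay above p21mTertCD_2, while in ciliated cells and alveolar macrophages the 5 p21mTert libraries were the lowest of all.

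Gm10600 came mainly from AT2 cells (46.0% of its UMIs), fibroblasts (26.2%) and lymphatic endothelial cells (14.98%). Fibroblasts were at 58.9, 48.6 and 68.9 CPM in p21Het, 51.4 in WT, 27.5 in p21mTertCD_1 and 0 in p21mTertCD_2 and in each p21mTert library. AT2 cells were at 17.6, 6.48 and 21.9 CPM in p21Het, 25.3 in WT, 2.10 in p21mTertCD_1 and 0 in the other 6 libraries. Lymphatic endothelial cells, summed over each group, were at 216 CPM in WT (exact interval 135 to 327) and 174 in p21Het (139.5 to 215), 43.1 in p21mTertCD (24.7 to 70.1) and 0 of 980587 UMIs in p21mTert (exact interval up to 3.76 CPM). The p21mTertCD value pools p21mTertCD_1 with p21mTertCD_2, which had no Gm10600 UMI in any lineage, so it describes neither library. With 0 in p21mTert, at least 29.7-fold lower in AT2 cells and 16.1-fold lower in fibroblasts are bounds from 3 counts per library.

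The edgeR quasi-likelihood test over all genes is reported for the members only in the contrasts with p21mTertCD. Here p21mTert minus p21mTertCD reuses the p21mTert libraries, and p21mTertCD minus p21Het the p21Het libraries, that had served to choose the members. Neither contrast is independent of the choice, so the member calls are given as a description. Over all kept barcodes, for p21mTert minus p21mTertCD, it called 0 of the 7 members at a Benjamini-Hochberg adjusted p under 0.05 (0.00571% of all genes were called), and 6 (all but Spink5) had an unadjusted p under 0.05, as 16.1% of all genes did. DESeq2 called 5 of the 7 there (Wdfy1, Cd59a, Rell1, Lrmda and Camk2b), where it called 2.37% of genes, so this call depends on the tool. For p21mTertCD minus p21Het edgeR called 0 members (0.12% of genes) with 0 at an unadjusted p under 0.05 (6.26% of genes), and DESeq2 called 0 (0.724% of genes). Within lineages edgeR called 4 of 46 pairs of member and lineage for p21mTert minus p21mTertCD, beside 0.0667% of all pairs: Cd59a, Rell1 and Camk2b in AT2 cells and Cd59a in ciliated cells. It called 0 for p21mTertCD minus p21Het (0.117% of all pairs). Members without overlap over all kept barcodes numbered 3 higher and 2 lower against p21mTertCD, where 15.8% and 4.29% of genes were, and 0 higher and 1 lower (Gm10600) between p21mTertCD and p21Het, where 6.73% and 5.85% were. In the last of these, 4 members were lower without p21Het_3, where 12.2% of genes were higher and 20.8% lower. Without p21mTertCD_2, 2 members were higher and 2 lower, where 17.5% and 30.5% of genes were.

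The order of the lineages was tested over all 11 libraries, of which the 5 p21mTert and 3 p21Het libraries had served to choose the members, and it covers only the 14 lineages used. Lineages with a mean of at least 2 CPM were ordered by their mean over libraries, and neighbours compared within libraries by an exact 2-sided paired permutation test on log2(CPM + 1). The 49 pairs were adjusted together, and 10 were separated. Ranks and tests use the same values. As a reading chosen after the values were seen, the pairs were also read in the 6 libraries outside p21mTert. Their smallest p of 0.0312 could not pass the adjustment, and they still hold the 3 p21Het libraries. Of the 10 pairs, 7 kept their direction in every such library and 3 did not. As these 6 are part of the 11, pairs that held in all libraries had to keep it, so the 7 are no separate support. The smallest p that 11 libraries allow is 0.000977. Among the 14 lineages, Wdfy1 was highest in ciliated cells (80.6 ± 45.4 CPM, SD, n = 11), above AT2 cells (55.3 ± 23.6) in 10 of 11 libraries (permutation p = 0.00293, adjusted 0.0239). The means were 125.3 and 78.4 CPM in p21mTert but 43.3 and 36.1 in the other 6 libraries, where WT went the other way (37.3 against 38.0) and p21Het_3 had 38.1 against 37.9. Further neighbours of Wdfy1, from AT2 down to T cells, did not separate. The test pools genotypes, so opposite orders can cancel. For example, B cells were above classical monocytes in 5 of 6 libraries outside p21mTert and in 0 of 5 within it. Erythroid cells (2.54 ± 2.27, n = 9) lay below T cells in 9 of 9 libraries (permutation p = 0.00391, adjusted 0.0239).

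Among the 14 lineages, Rell1 was highest in neutrophils (92.0 ± 16.3 CPM, SD, n = 11) and aCap cells (89.0 ± 20.2, n = 10), which did not differ beyond their spread (permutation p = 0.834, adjusted 0.888). Neutrophils were above aCap cells in 4 of 5 libraries outside p21mTert (102.1 against 87.1 CPM) and in 1 of 5 within it (78.6 against 90.8). Classical monocytes (64.2 CPM) were above gCap cells (52.7) in 9 of 11 libraries and fibroblasts (47.2) above B cells (28.5) in 10 of 11 (exact permutation p = 0.00391, adjusted 0.0239, for both). Outside p21mTert the first pair held in 6 of 6 libraries (3 of 5 within p21mTert). Fibroblasts and B cells were at 39.6 and 14.3 CPM in p21mTert and 53.4 and 40.3 outside it, where p21Het_1 had 48.6 against 47.3 and p21Het_3 went the other way (36.3 against 56.6). Ciliated cells (14.6) were above erythroid cells (4.98) in 9 of 9. Among the 14 lineages, Cd59a was highest in fibroblasts (58.2 ± 13.2), above ciliated cells (45.4 ± 20.7) in 10 of 11 libraries (permutation p = 0.00684, adjusted 0.0372). Ciliated cells were above AT2 cells (17.1 ± 12.4) in 11 of 11 (permutation p = 0.000977, adjusted 0.016). AT2 and erythroid cells (10.2) did not separate over pooled genotypes. AT2 cells were above in 5 of 5 p21mTert libraries (29.55 against 12.05 CPM) and in 1 of 4 outside p21mTert (5.71 against 7.91).

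Camk2b was highest in NK cells, 57.5 ± 26.4 CPM, above T cells (12.98 ± 5.58) in 11 of 11 libraries (permutation p = 0.000977, adjusted 0.016). Its further neighbours did not separate over pooled genotypes. Among them, classical were above non-classical monocytes in 6 of 6 libraries outside p21mTert and in 1 of 5 within it. Lrmda was highest in ciliated cells, 16.2 ± 12.4 CPM, above alveolar macrophages (7.61 ± 6.41) in 11 of 11 (permutation p = 0.000977, adjusted 0.016), and AT2 cells were above interstitial macrophages in 8 of 11 (permutation p = 0.00977, adjusted 0.0478), 4 of 6 outside p21mTert. Gm10600 stood at 23.2 CPM in fibroblasts and 6.67 in AT2 cells over 11 libraries, of which 6 held none in either. This pair could not separate (permutation p = 0.0625, adjusted 0.17), since with 6 differences of 0 no smaller p is possible. Outside p21mTert fibroblasts were above AT2 cells in 5 of 6 libraries (42.5 against 12.2 CPM). Spink5 had a single lineage with a mean of 2 CPM, AT2 (61.6 ± 23.2 CPM).

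Lineages with too few cells for library values lay above these for 4 members when UMIs were pooled over the 11 libraries. Rell1 was at 520.0 CPM in 205 plasmacytoid dendritic cells. By group these cells were at 575 CPM in WT (exact interval 461 to 709), 529 in p21Het (483 to 579), 443 in p21mTert (394.5 to 495) and 599 in p21mTertCD (531 to 673). Wdfy1 was at 115 CPM in 234 mural cells, with 163 in p21mTert (exact interval 140.5 to 188) and 76.5 in p21Het (56.6 to 101). Cd59a was at 81.5 CPM in mural, 71.2 in AT1 and 69.0 in large vessel endothelial cells, the last on 38 UMIs. Gm10600 was at 63.7 CPM in 266 lymphatic endothelial cells. These pooled values weight libraries by their UMIs, and their intervals cover counting error only.

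Other genes of the members' pathways were read from 5 lists. Of 49 listed genes 45 were tested over all kept barcodes, and edgeR called 0 of them in each contrast, with 6 at an unadjusted p under 0.05 for p21mTert minus p21Het, 4 for p21mTert minus p21mTertCD, and 4 for p21mTertCD minus p21Het. Of all genes, 7.24%, 16.1% and 6.26% had such a p in these contrasts, and 0.0114% were called for p21mTert minus p21Het. DESeq2 called 0, 1 and 0 of the listed genes, beside 0.125%, 2.37% and 0.724% of all genes. For p21mTert minus p21Het, median log2 fold changes were -0.01 over 12 complement regulators, -0.09 over 13 calmodulin and CaM kinase genes, -0.19 over 10 genes of the WDFY family and TLR3 or TLR4 signalling, -0.08 over 4 genes of the RELT family and its kinases and 0.06 over 6 Kazal inhibitors and kallikreins, beside 0.01 over all genes tested.

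Between p21mTert and p21Het, the Camk2, Cd59, Wdfy and Relt relatives named here had overlapping libraries. Most genes did: of those with at least 50 UMIs, 2.33% were higher and 0.981% lower without overlap. Camk2d, the CaM kinase subunit with most UMIs here, was at 126 ± 15.02 CPM in p21mTert (SD, n = 5), 143 ± 20.5 in p21Het (n = 3), 134 ± 5.88 in p21mTertCD (n = 2) and 156 in WT. Camk2g was at 25.0 ± 3.04, 25.7 ± 4.65, 28.6 ± 2.88 and 26.4 CPM in the same order, and Camk2a at no more than 1.02 CPM in these 10 libraries. Cd59b, the paralog of Cd59a, was at 1.14 ± 0.503 CPM in p21mTert, 0.887 ± 0.231 in p21Het and 0.849 ± 0.755 in p21mTertCD. Wdfy2, Wdfy3 and Wdfy4 had log2 fold changes of -0.29, -0.23 and -0.32 for p21mTert minus p21Het, and Rell2 and Relt of -0.05 and -0.54, none called. Against p21mTertCD, Relt was lower without overlap (6.25 to 11.2 CPM against 11.4 and 13.9), where 4.29% of all genes were lower and 15.8% higher. There edgeR did not call Relt (log2 fold change -0.53, adjusted p = 0.378). Tlr4, a receptor that signals through TRIF, was the only listed gene whose p21mTert libraries did not overlap p21Het. It was at 10.5 to 12.8 CPM in p21mTert, 13.8 to 15.4 in p21Het and 8.41 in WT. Of all genes, 0.981% were lower without overlap in this way, so nothing is read from this count. edgeR did not call Tlr4 (adjusted p = 0.672), and it was chosen for naming after its values were seen. Within lineages, 1 of 347 tests per contrast was called, for p21mTert minus p21mTertCD: Camk2d was lower in non-classical monocytes (log2 fold change -0.82, SE 0.16, edgeR adjusted p = 0.0326). For p21mTert minus p21Het, where 0.0397% of all pairs of gene and lineage were called, none was.

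The genes around the members were read in the same way. Within 1 Mb of the 7 genes lie 211 others, of which 127 had at least 50 UMIs and 125 were tested. edgeR called 0 in each contrast (12, 20 and 5 at an unadjusted p under 0.05, beside 7.24%, 16.1% and 6.26% of all genes), and DESeq2 called 1, 4 and 0 (0.125%, 2.37% and 0.724% of all genes). Without overlap between p21mTert and p21Het, 4 of the 127 were higher and 5 lower (2.33% and 0.981% of all genes were). Of 8 such neighbours of Rell1, 3 were lower and 1 higher; they are named because of their values. 5830416I19Rik, a long noncoding RNA gene 76081 bases from Rell1, was at 0.138 to 0.400 CPM in p21mTert, 1.27 to 3.18 in p21Het, 1.33 and 1.42 in p21mTertCD and 2.90 in WT, all p21mTert libraries being the lowest (log2 fold change -2.92, edgeR adjusted p = 0.0632). Pgm1, annotated 124053 bases away, was at 10.9 to 13.4 CPM in p21mTert and 13.6 to 22.8 in p21Het, and 0610040J01Rik, 9272 bases away, at 3.79 to 4.95 and 5.67 to 6.92. The fourth neighbour without overlap, the noncoding 1700027F09Rik, 485916 bases away, went the other way, at 0.0986 to 0.242 CPM in p21mTert and 0.0723 to 0.0807 in p21Het, on 75 UMIs in all. For 0610040J01Rik the p21mTertCD libraries were as low as p21mTert (3.53 and 4.83 CPM), unlike for Rell1. Around Wdfy1 none of 9 neighbours separated. Around Camk2b 1 of 37 did, around Cd59a 1 of 18, around Lrmda 1 of 13, around Gm10600 1 of 32 and around Spink5 1 of 10. Gene bodies of 5 neighbours overlap a member, 3 of them in Lrmda.

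**Figure D5:**
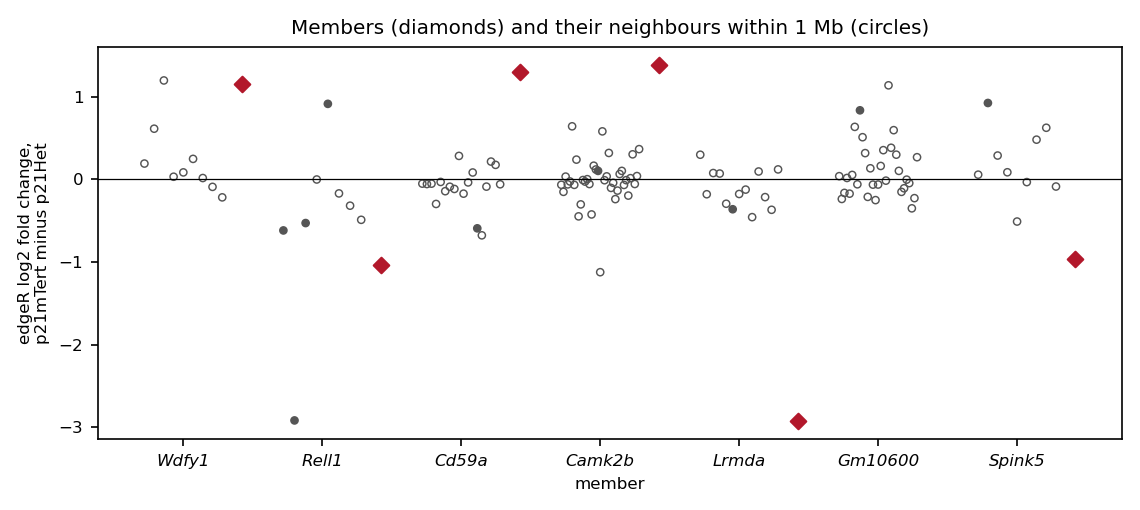
edgeR log2 fold change, p21mTert minus p21Het over all kept barcodes, of the members (diamonds) and of the tested genes within 1 Mb (circles, filled where the libraries do not overlap). Gm10600 has no diamond because it had no UMI in p21mTert. The 1 neighbour near -2.92 is 5830416I19Rik beside Rell1.

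Among 10880 genes with a mean of at least 5 CPM, the genes closest to each member over the 11 libraries, by Pearson's r of log2(CPM + 1), are given as a description; the libraries share their genotypes. Wdfy1 and Camk2b were each other's closest (r = 0.956). Both were picked on the same contrast and were higher in p21mTert, so nothing is read from this likeness. Cd59a followed Notch4 (0.960), Tmem2 (0.934) and Stmn2 (0.930). Rell1 followed Nxt1 (0.889), Tor1a (0.881) and Usp45 (0.868), and Lrmda followed Vipas39 (0.866), Cd177 (0.850) and Esd (0.826). Gm10600 came closest to Cln6 (0.849), Aldh9a1 (0.831) and Prkra (0.799), and Spink5 to Dram2 (0.908), Gys1 (0.902) and Cerk (0.875). For Wdfy1 the next were Hspa4l (0.864) and Pop4 (0.846), and for Camk2b AC149090.1 (0.873) and Cep295 (0.848).

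Restricting the comparison to the 8 libraries with a Rep number in the title left 4 p21mTert against 2 p21Het libraries, where 25.8% of genes were higher and 3.77% lower without overlap, beside 3 members higher and 3 lower. Log2 differences were 1.35 for Wdfy1, 1.30 for Camk2b, 1.38 for Cd59a, -0.95 for Rell1 and -1.95 for Lrmda. Spink5 overlapped there too (-0.38). The 3 libraries without a Rep number hold 1 of each of the groups WT, p21Het and p21mTert: p21mTert_1 was above p21Het_1 for Wdfy1, Cd59a and Camk2b and below it for Rell1, Lrmda, Gm10600 and Spink5. For all members but Spink5 these counts and directions follow from the lack of overlap over all libraries. Nothing is read from them, since this contrast chose the members.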

How the data were processed

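The deposited matrices hold raw UMI counts per gene and barcode, 1 matrix per library. Per the submitters' processing notes reads were mapped to mm10 with Cell Ranger; design text and file headers disagree on its version, and none is given. The filters of the design text were applied here, as these counts do not carry them. No doublet caller was run; the marker rule leaves out barcodes that fit 2 lists. It was set after the data were seen, and members and gene lists were chosen with earlier results of these data known. Counts were summed per library and lineage (at least 20 cells) and fitted with edgeR 4.0.16 (R 4.3.3, filterByExpr, TMM) on genotype, using the 10 libraries of replicated groups; DESeq2 1.42.0 was an alternative. The test was checked on simulated data. WT, with 1 library, entered no test of groups and has exact (Clopper-Pearson) 95% intervals. Positions come from GENCODE M21, which held 31011 of 31053 identifiers, and copies of Gm10600 from blastn 2.17.0. Named genes are the 7 members, Cdkn1a, Tert, relatives of the members, listed or neighbouring genes that were called, and the 3 genes closest to each member over libraries; Tlr4, the 4 named neighbours of Rell1, Sik1 and Gm47283 lie outside this rule and were chosen after their values were seen.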

Additional observations from a re-analysis of the deposited data

Results flagged for a closer look

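Of 53 groups of 5 libraries tested for a library far from the others (member by lineage), 5 held one by Dixon's criterion at 95%; chance gives about 1 in 20 groups. Rell1 over all kept barcodes was at 22.2 CPM in p21mTert_3, the lowest of the 5 p21mTert libraries, with the next at 27.1. In classical monocytes p21mTert_4 was highest for Rell1, 62.2 CPM beside 53 in the next. In neutrophils p21mTert_2 was lowest for Rell1, 62.9 CPM beside 81.3. For Lrmda, p21mTert_5 was highest in ciliated cells, 6.58 CPM beside 5.46, and p21mTert_3 in classical monocytes, 6.63 CPM beside 0.699.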

How the results depend on the processing

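Of 119 values per contrast, 110, 103 and 109 moved by less than the spread between libraries. The contrasts are p21mTert minus p21Het (contrast 1), p21mTert minus p21mTertCD (contrast 2), and p21mTertCD minus p21Het (contrast 3). These values include settings that left out a library of the replicated group outside the contrast. Such settings cannot move a value and count as unmoved, most often in contrast 3, where that group is p21mTert with 5 libraries. The counts therefore overstate how stable the values are. Reversed directions were looked for only where a member's libraries did not overlap, in contrast 3 Gm10600 alone, and none was seen. Other members can change sign. For Wdfy1 in contrast 3, p21mTertCD_1 (26.9 CPM) lay above the p21Het range (14.97 to 24.7) and p21mTertCD_2 (16.1) within it. Counts of called genes were less stable, and the cause was not tested. In that order of contrasts, genes called over all kept barcodes (2, 1 and 21) came to 31, 585 and 179 with DESeq2, 1, 3 and 0 with libraries that carry a Rep number in the title, and 0, 0 and 0 with a replicate block. They came to 5 for contrast 1 with no filter on low counts, 5 for contrast 3 with RLE size factors, and 1 and 9 for contrasts 1 and 3 with a term for a Rep number. Leaving out 1 library each gave 1 to 7, 1 to 138 and 0 to 97. Genes called within lineages, summed over 14 lineages (50, 84 and 148), came to 136, 349 and 464 with DESeq2, 1387, 1405 and 1109 with no filter, 25, 17 and 66 with the replicate block, and for contrast 1 to 146 with Rep-number libraries and 90 with the term. Leaving out 1 library gave 30 to 148, 35 to 1427 and 55 to 1415; the highest of the last 2 came without p21mTertCD_2, where the lone p21mTertCD library is assumed to vary like the other groups. Same-numbered libraries deviated together with r from -0.328 to 0.223, so the numbers were not taken as pairs. Partner genes called went from 0 to 1 with DESeq2 for contrast 2, and to 2 and 1 without p21mTertCD_2 for contrasts 2 and 3 (0 to 2 and 0 to 1 over the libraries left out). Neighbours called went from 0 to 1 with DESeq2 and with no filter for contrast 1, and to 4 with DESeq2 for contrast 2. Members not overlapping between p21mTertCD and p21Het (1) numbered 2 with Rep-number libraries and with lineages weighted equally, and 1 to 4 with 1 library left out (4 without p21Het_3 or without p21mTertCD_2). Gm10600, Spink5 and Lrmda are described only in the few lineages where they reached 50 UMIs.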
